A study of Arabidopsis thaliana with 13 samples.

Results

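A set of 56 Arabidopsis thaliana genes had lower transcript levels at both 6 h and 12 h than at 0 h, out of 3689 genes named on a spotted cDNA array with 2 colours. They were chosen by the measured ratios themselves: the mean log2 ratio over 0 h had to be at or below -0.7, which is 1.62-fold lower, on the 2 arrays of 6 h and on the 4 arrays of 12 h that are not titled single. Of the 91 named genes at or below both limits, 34 were dropped because both arrays of 36 h over 24 h lay at or past 1 in the same direction, 9 upwards and 25 downwards. A further gene, HPR, was left out by name, and 3 of those dropped (TZP, AKINBETA1 and CaS) are on the same list of names. The choice fixes that these genes are low at 6 h and 12 h, so those values and the values at 36 h over 24 h are given as a description, with no test.

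The 13 arrays each compared total RNA of a later harvest with total RNA of an earlier harvest. There were 2 arrays of 6 h over 0 h, 5 of 12 h over 0 h, 2 of 18 h over 0 h, and 1 each of 24 h over 0 h, 36 h over 24 h, 36 h over 24 h labelled dark, and 60 h over 48 h. For 60 h over 48 h the plants had grown with 12 h of light and 12 h of dark and were then moved to continuous light, with harvests 24 h and 36 h after the move, labelled ZT 48 and 60. For the other arrays the labels give no hours of light, no age, tissue, strain or genotype, so 0 h is not stated to be dawn, and no source used here says whether plants were pooled. The word biological in 3 titles is the sole hint of separate plants, so the spread behind the p-values is that of arrays and may be technical.

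In plants the time of day reaches transcript levels along several routes, chiefly the circadian clock, light perceived by photoreceptors, and the sugar and energy status that follows photosynthesis. A transcript that is high at the reference hour and low through the following hours gives negative ratios, and it returns toward 0 if the cycle closes after a day. A ratio on an array of bulk RNA shows neither the absolute level nor whether fewer cells or less RNA per cell lies behind a change.

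All values are log2 ratios of the later over the earlier harvest, with each array's median set to 0. The deposited ratios were taken to have channel 2 on top; no source used here states this, and if channel 1 were on top every sign below would turn. Arrays had a value for 12446 to 12795 of 12800 features, and none of the 56 genes lacked a value on any array. The 12 h array titled single (array 1) stood apart: its ratios had an SD of 0.382, against 0.626 to 0.858 on the other arrays, and its correlation with the other 12 h arrays over all features ran from -0.05 to 0.06. The other pairs of 12 h arrays had an r of 0.13 to 0.57, the pair of 6 h 0.42 and the pair of 18 h 0.13, over features that are not independent replicates. Some arrays of different hours with the same channel order and software version correlated as highly or more: array 2 of 6 h with array 3 of 12 h at 0.70, array 3 of 12 h with array 2 of 18 h at 0.60, and array 4 of 12 h with the 24 h array at 0.59. The 24 h array correlated at -0.35 with array 2 of 6 h and at -0.33 with array 2 of 18 h, both of the opposite channel order. Other pairs did not divide by channel order. The highest correlation of any pair, 0.72, was between the arrays of 36 h over 24 h, which had opposite channel orders. Array 1 of 6 h correlated at 0.43 with array 3 of 12 h, of the opposite order, and at 0.41 with array 2 of 12 h, of its own order. Whether channel order lies behind the likeness of arrays was not tested. No pair of arrays had more than 10 features with identical values.

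**Figure D1:**
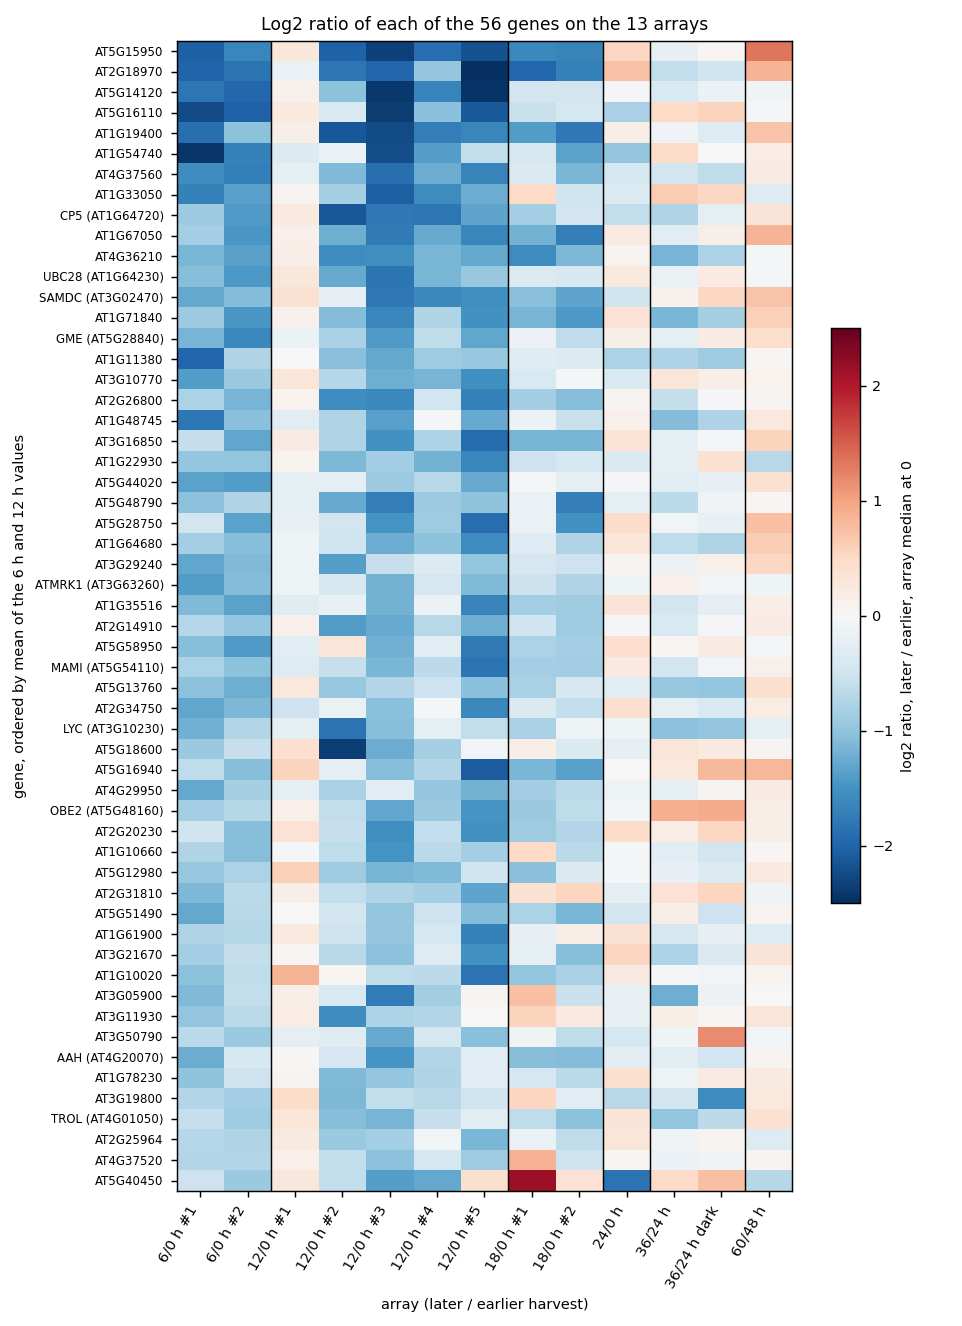
Log2 ratio of each of the 56 genes (rows, lowest mean of 6 h and 12 h on top) on each of the 13 arrays (columns, later over earlier harvest), blue for lower and red for higher at the later harvest. The 6 h and 12 h columns are blue by choice of the genes, except array 1 of 12 h, and the 24 h and 60 h columns are pale or red for most rows.

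The 10 lowest genes by the mean of 6 h and 12 h were AT5G15950, AT2G18970, AT5G14120, AT5G16110, AT1G19400, AT1G54740, AT4G37560, AT1G33050, CP5 (AT1G64720) and AT1G67050. AT5G15950 had the lowest mean of all. It stood at -2.04 and -1.63 at 6 h, and at -2.02, -2.34, -1.91 and -2.19 on arrays 2 to 5 of 12 h, which averages 4.33-fold lower at 12 h (SD 0.19 on the log2 scale, n = 4). All 6 of these arrays lay within 1 unit of one another, while array 1 of 12 h gave 0.28. At 18 h the gene was still at -1.61 and -1.67, and the 24 h array read 0.52. It stayed near 0 from 24 h to 36 h (-0.21, and 0.04 in the dark) and had 1.34 at 60 h over 48 h, the highest value among the 56 genes on that array.

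AT2G18970 was likewise low through 18 h. Its values were -2.0 and -1.83 at 6 h, -1.80, -1.99, -0.97 and -2.81 on arrays 2 to 5 of 12 h, and -1.96 and -1.69 at 18 h. The 24 h array then read 0.74 and the 60 h array 0.85. From 24 h to 36 h AT2G18970 was lower, at -0.62 and, in the dark, -0.50. AT1G19400 was also low through 18 h, with -1.89 and -1.04 at 6 h, -2.12, -2.24, -1.73 and -1.63 at 12 h and -1.40 and -1.79 at 18 h. It read 0.14 at 24 h and 0.72 at 60 h over 48 h. AT1G67050 was shallower, at -0.86 and -1.46 at 6 h, -1.23, -1.76, -1.26 and -1.62 at 12 h, and -1.18 and -1.72 at 18 h, with 0.21 at 24 h and 0.85 at 60 h. For these 4 genes the 18 h values fell inside or next to the range of the 12 h arrays, and the single 24 h value lay above every one of them. With the dye correction described further on, the 24 h value was 0.21 for AT5G15950, 0.26 for AT2G18970, 0.02 for AT1G19400 and -0.20 for AT1G67050.

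All of the 10 genes had at least 1 array of 18 h nearer 0 than the 12 h mean. In the genes among the 10 not yet described, the higher array of 18 h read -0.48 (CP5) or above. In those described before, it read -1.18 (AT1G67050) or below. AT5G14120 had -1.80 and -1.97 at 6 h and -1.03, -2.41, -1.68 and -2.45 on arrays 2 to 5 of 12 h, against -0.46 on both arrays of 18 h and -0.03 at 24 h. AT5G16110, the lowest gene at 6 h (4.35-fold), had -2.23 and -2.01 there and -0.39, -2.37, -1.05 and -2.11 at 12 h. Its 18 h values were -0.56 and -0.44, and the 24 h value was -0.81. On arrays 2 to 5 of 12 h AT5G16110 divided by channel, since arrays 3 and 5, with the later harvest in channel 1, read lower than arrays 2 and 4, with the later harvest in channel 2. At 6 h the order was the other way, with -2.23 in channel 2 and -2.01 in channel 1. Its dye coefficient, 0.62, was the largest of the 56 genes. That coefficient also takes in array 1 of 12 h, which read 0.24 in channel 2.

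AT1G33050 had -1.68 and -1.35 at 6 h and -0.83, -2.05, -1.57 and -1.24 at 12 h, and its 18 h arrays lay on either side of 0, at 0.49 and -0.51. CP5, measured by 5 features, had -0.90 and -1.42 at 6 h, -2.11, -1.79, -1.80 and -1.33 at 12 h, and -0.86 and -0.48 at 18 h. AT4G37560 was at -1.56 and -1.72, then -1.10, -1.89, -1.25 and -1.66, then -0.35 and -1.15, at 6 h, 12 h and 18 h. AT1G54740 was lowest at 6 h (-2.44 and -1.69) and scattered at 12 h (-0.16, -2.21, -1.39 and -0.61, SD 0.90). Its 18 h arrays read -0.41 and -1.34, the second below its 12 h mean of -1.09, and it stayed low at 24 h (-0.99). These genes differed in the hour of their lowest mean, by 0.98 at most for AT1G54740, whose 12 h arrays alone span more than that.

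**Figure D2:**
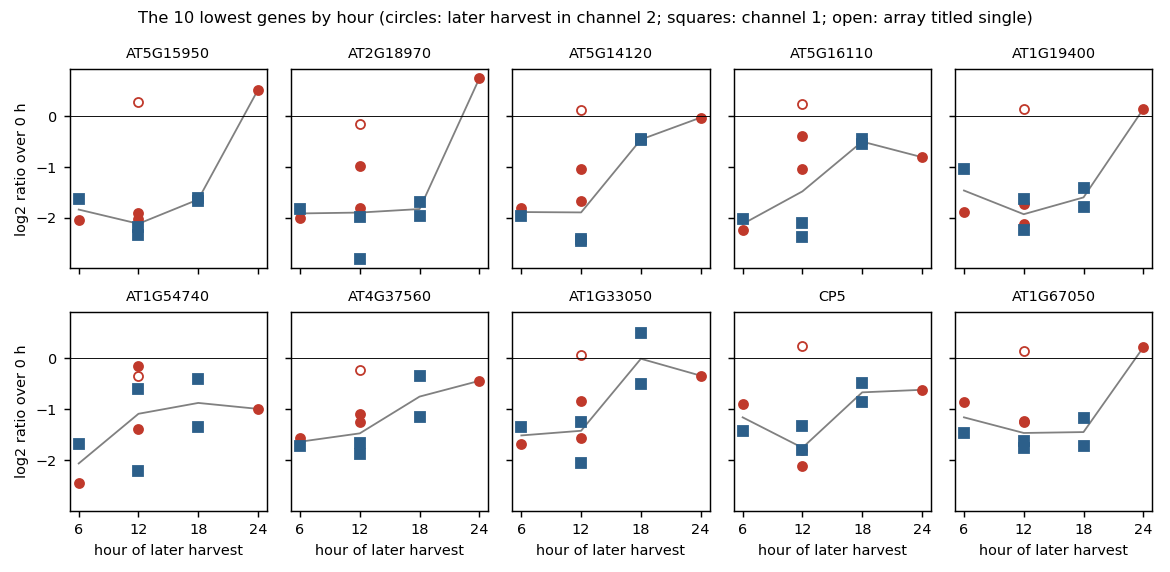
Log2 ratio over 0 h (vertical axis) against the hour of the later harvest (horizontal axis) for the 10 lowest genes, 1 point per array, with a grey line through the means without the open circle. AT5G15950, AT2G18970, AT1G19400 and AT1G67050 remain low at 18 h and lie above 0 at 24 h before dye correction (AT1G67050 is at -0.20 and AT1G19400 at 0.02 after it), and the open circle, array 1 of 12 h, lies above the other 12 h points in every panel but that of AT1G54740.

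Of the 56 genes, 10 carry a symbol in the gene table and 1 more, AT3G21670, is listed there as NPF6.4; the other 45 are known here by locus alone. Several of the named genes encode enzymes of metabolism. SAMDC (AT3G02470) is S-adenosylmethionine decarboxylase, which supplies the aminopropyl donor for the polyamines spermidine and spermine. It had -1.29 and -1.09 at 6 h and -0.21, -1.79, -1.61 and -1.53 on arrays 2 to 5 of 12 h. Array 2 was the outlying value, and the 18 h arrays were at -1.05 and -1.31. At 24 h SAMDC read -0.49, and at 60 h over 48 h it read 0.71.

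GME (AT5G28840), the GDP-mannose epimerase on the route to ascorbate, had -1.15 and -1.61 at 6 h and -0.82, -1.41, -0.64 and -1.29 at 12 h. At 18 h it was at -0.14 and -0.64, and at 24 h at 0.14. LYC (AT3G10230), the lycopene beta-cyclase of carotenoid synthesis in plastids, had -1.20 and -0.73 at 6 h, and its 12 h values spread from -1.85 on array 2 through -1.06 and -0.61 to -0.25 on array 4. LYC also stood near the limit for exclusion from 24 h to 36 h, at -1.03 and, in the dark, -0.98. AAH (AT4G20070), an allantoate amidohydrolase that releases nitrogen from purine breakdown products, had -1.23 and -0.41 at 6 h, -0.42, -1.47, -0.72 and -0.29 at 12 h, and -1.07 and -1.09 at 18 h.

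TROL (AT4G01050), a thylakoid protein that anchors ferredoxin-NADP reductase, had -0.57 and -0.89 at 6 h and -1.06, -1.16, -0.58 and -0.27 at 12 h. Its 18 h arrays read -0.63 and -1.04, and the array of 24 h 0.33. NPF6.4, of the family of nitrate and peptide transporters, had -0.86 and -0.60 at 6 h, and -0.69, -1.03, -0.33 and -1.51 at 12 h. It read -0.25 and -1.07 at 18 h and 0.53 at 24 h. Both genes lay just inside the limit of -0.7 through their 6 h mean of -0.73.

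UBC28 (AT1G64230), a ubiquitin-conjugating enzyme, had -1.07 and -1.43 at 6 h and -1.26, -1.82, -1.15 and -0.95 at 12 h, with -0.35 and -0.39 at 18 h and 0.24 at 24 h. ATMRK1 (AT3G63260), a protein kinase, was lower at 6 h (-1.41 and -1.09) than in the mean of 12 h (-0.78, SD 0.42, n = 4). OBE2 (AT5G48160), a PHD-finger protein, had -0.84 and -0.72 at 6 h and -0.61, -1.29, -0.92 and -1.48 at 12 h. It was the member with the highest value at 36 h over 24 h, 0.88, and read 0.92 on the dark array. MAMI (AT5G54110) had -0.79 and -1.03 at 6 h and -0.57, -1.14, -0.66 and -1.83 at 12 h. Its 2 features disagreed in size, with 12 h means of -1.82 and -0.28.

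Across the 56 genes the 6 h mean ran from -2.12 to -0.73 with a median of -0.98, and the 12 h mean from -2.11 to -0.71 with a median of -1.03, beside medians of -0.02 and -0.003 over all named genes. Both means were at or below -1 for 17 genes. The 6 h mean was the lower for 27 genes and the 12 h mean for 29, and the means differed by less than 0.3 in 38. All 6 arrays used for the choice were below 0 in 51 genes. The other 5 (AT5G58950, AT1G10020, AT3G05900, AT3G11930 and AT5G40450) had 1 array above 0 each, the highest at 0.41 for AT5G40450 on array 5 of 12 h. The members nearest the limit were AT2G34750 (larger mean -0.71), AT5G40450 (-0.72), AAH (-0.73), AT3G21670 (-0.73) and TROL (-0.73). Just outside it, above the limit before rounding, lay AT3G60300 (-0.70), AT2G37240 (-0.70), AT3G15780 (-0.70), AT5G01160 (-0.69) and AT2G44300 (-0.69).

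Separate spots of the same gene give a further view of these values, although they share RNA and array. The 20 genes with 2 or more features hold 54 features, of which 53 were below 0 and 40 at or below -0.7 at both 6 h and 12 h. The rule used the mean over these features, so most of them are low by the choice. Every feature passed both limits in 9 of the 20 genes, while 0 of the 2 features of AT5G40450 did. All 5 features of SAMDC passed both limits, with 6 h means of -1.58 to -0.86 and 12 h means of -1.49 to -1.15. The 5 features of CP5 did so too, at -1.67 to -0.83 for 6 h and -2.02 to -1.32 for 12 h. AT5G44020, with 6 features, had 5 that lay between -1.66 and -1.38 at 6 h, and another at -0.59, which was at -0.12 at 12 h. OBE2 held the 1 feature above 0, at 0.07 for 6 h, while its 12 h mean was -1.18. The means of SAMDC and CP5 therefore do not rest on single spots, whereas 36 of the 56 genes were measured by 1 feature.

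**Figure D3:**
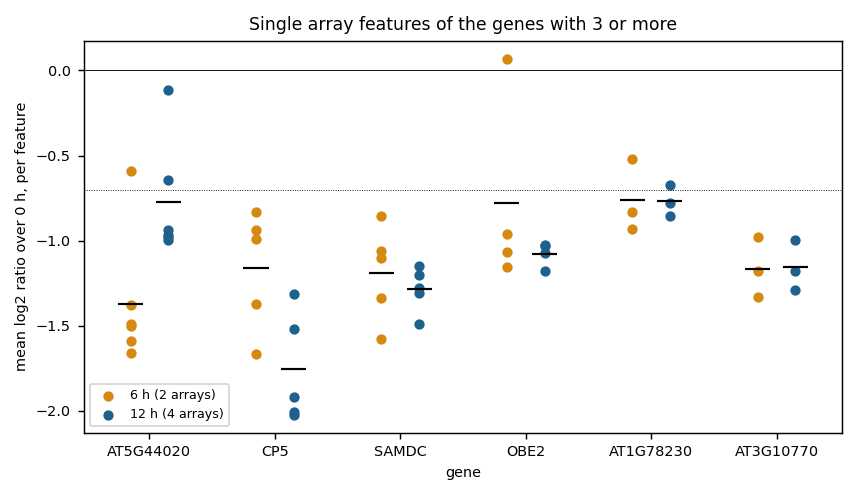
Mean log2 ratio over 0 h of each array feature (points; 6 h over 2 arrays, 12 h over 4 arrays) for the 6 genes with 3 or more features, with the mean over features as a black bar and the limit of -0.7 dotted. All features of SAMDC, CP5 and AT3G10770 lie below the dotted line, while AT5G44020 and OBE2 each have 1 feature well above the rest.

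Array 1 of 12 h took no part in the choice. On it the 56 genes had a median of 0.12 and 21 lay below 0, beside a median of 0.02 and 47.0% below 0 over all named genes. The lowest value was -0.53 for AT2G34750 and the highest 0.84 for AT1G10020. The lower level at 12 h of the other 4 arrays, with medians of -0.79, -1.26, -0.75 and -1.29 for arrays 2 to 5, was not seen on this array, which also had the smallest SD over all features.

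**Figure D4:**
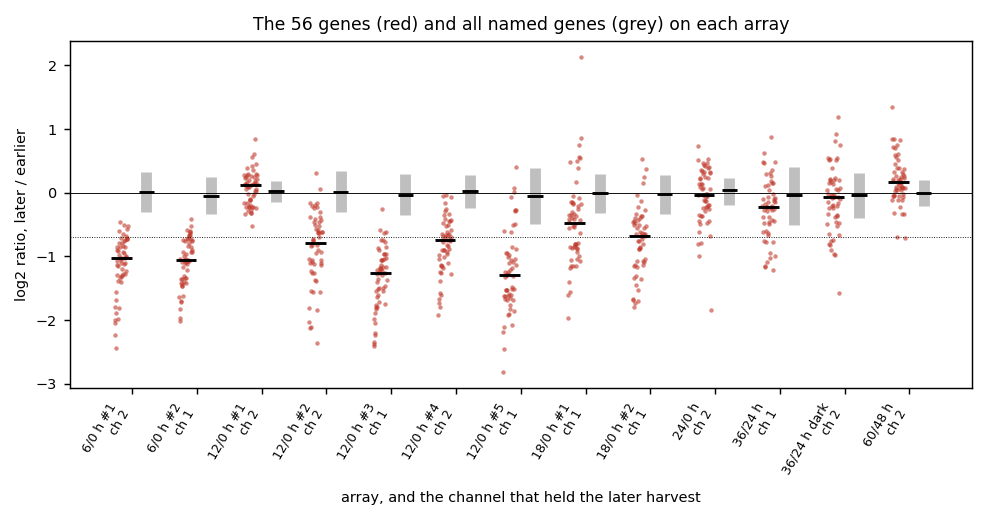
Log2 ratio of the 56 genes (red points, black bar at the median) beside all named genes (grey bar from the lower to the upper quartile, black bar at the median) on each array, with the channel of the later harvest under the name. The medians of the 56 genes are -1.03 and -1.05 at 6 h, -0.48 and -0.68 at 18 h, -0.03 at 24 h and 0.16 at 60 h over 48 h.

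Whether the genes were still low 18 h after the first harvest was tested with limma, which fitted all 13 arrays together with a coefficient for each comparison and a dye term. The dye term is estimated from the 6 h and 12 h arrays, which include those that chose the genes, so every dye-corrected value of the 56 genes carries that choice and is given as a description. The fit without the dye term takes its coefficients at 18 h, 24 h and 60 h from those arrays alone, but leaves the channel order uncorrected. Its standard errors and p-values still rest on the spread within all comparisons, including the 6 h and 12 h arrays that chose the genes. Its p-values for the 56 genes are therefore not independent of the choice. At 18 h the raw values were below 0 on both arrays for 46 genes and above 0 on both for 3, beside 26.5% of all named genes below 0 on both. AT5G40450 had 2.14 and 0.37, the highest value on array 1 and, after AT2G31810 with 0.54, the next on array 2. Without the dye term the median was -0.66, with 50 of 56 below 0 and 24 at or below -0.7, beside a median of 0.002, 49.9% below 0 and 4.23% at or below -0.7 over all named genes. After dye correction 43 of 56 coefficients were below 0, with a median of -0.41, beside a median of 0.03 and 46.1% below 0 over all named genes. At or below -0.7 were 12 of the 56, against a background of 3.33% of named genes. The lowest coefficients were those of AT1G19400 (-1.48 ± 0.57, SE, n = 2 arrays, adjusted p = 0.764), AT2G18970 (-1.35 ± 0.48, adjusted p = 0.748) and AT5G15950 (-1.33 ± 0.58, adjusted p = 0.823). AT4G36210, AT1G67050 and AAH followed, at -1.11, -1.04 and -1.02.

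By limma 0 of the 56 passed an adjusted p of 0.05 at 18 h, where 0% of 11290 targets did. At an unadjusted p under 0.05 there were 9, all of them lower, beside 3.61% of targets that were lower at that level. Without the dye term limma also passed 0 of the 56 and 0% of targets, and 18 of the 56 were lower at an unadjusted p under 0.05, beside 4.54% of targets. The 18 h and 24 h arrays share the 0 h time with the arrays that chose the genes, so their ratios are not independent of the choice. Both 18 h arrays had the later harvest in channel 1. The dye coefficient is positive where a gene reads higher with the later harvest in channel 2. It was above 0 in 50 of the 56 genes and below 0 in 6, with a median of 0.26. Over all named genes its median was 0.04, with 42.6% below 0. The dye coefficients of the 56 come from the ratios that chose them, with array 1 of 12 h outside the choice and in channel 2. Without that array they were above 0 in 42 of the 56 genes with a median of 0.16. Channel and hour cannot be told apart within the 18 h arrays.

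At 24 h over 0 h, a day after the first harvest, the raw median of the 56 genes was -0.03, with 30 below 0 and 4 at or below -0.7, beside a median of 0.04, 46.0% below 0 and 4.61% at or below -0.7 over all named genes. AT5G15950, AT2G18970, AT3G21670 and AT5G28750 were above 0, at 0.52, 0.74, 0.53 and 0.46, while AT5G40450 was at -1.85 and AT1G54740 at -0.99. With the dye correction, which lowers this array because its later harvest was in channel 2, the median was -0.20 and 46 of 56 were below 0, beside -0.01 and 50.9% over all named genes. There were 9 genes at or below -0.7, against 3.26% of named genes. They include AT5G40450 (-1.89 ± 0.79, SE, 1 array, limma adjusted p = 0.9998), AT5G16110 (-1.43 ± 0.61, adjusted p = 0.9998), AT1G54740 (-1.16), SAMDC (-0.88) and CP5 (-0.81). None of the 56 passed by limma, where 0.0177% of 11273 targets did, and 2 of the 56, beside 363 of the targets, had an unadjusted p under 0.05. The shift between the raw and the corrected values is the dye term fitted on the 6 h and 12 h arrays. When array 1 of 12 h was left out, the corrected median was -0.13 and 5 genes were at or below -0.7. Without the dye term limma passed 0 of the 56 and 0% of targets, with 1 of the 56 and 561 of the targets at an unadjusted p under 0.05.

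The difference between 24 h and 18 h has the 0 h harvest on both sides. AT2G18970 (1.61 ± 0.86, SE), AT5G15950 (1.54 ± 1.04) and AT1G19400 (1.5 ± 1.02) had the largest positive differences, each with a limma adjusted p of 1. AT5G40450 (-3.18 ± 1.07), AT5G16110 (-1.54 ± 0.83) and AT2G31810 (-0.97 ± 0.64) had the most negative ones. These values too are dye-corrected, and the 18 h and 24 h arrays had opposite channel orders. The median over the 56 genes was 0.17, beside -0.03 over all named genes, and without the dye term it was 0.63, beside 0.03. At or above 0.7 were 10 genes, against 5.65% of named genes, and at or below -0.7 were 7, against 7.82%. By limma 0 of the 56 passed, as did 0% of 11273 targets, with 1 of the 56 and 315 of the targets at an unadjusted p under 0.05. Its sign rests on single arrays: the median was -0.17 when 1 of the arrays of 6 h was left out, whichever it was, and -0.03 when array 2 of 18 h was.

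In continuous light, 60 h over 48 h again sets harvests 12 h apart, and neither time was used to choose the genes. On the raw scale the median was 0.16 and 15 of the 56 were below 0, beside -0.01 and 51.6% over all named genes. The highest raw values were those of AT5G15950 (1.34), AT2G18970 (0.85), AT1G67050 (0.85), AT5G16940 (0.83), AT5G28750 (0.75), AT1G19400 (0.72) and SAMDC (0.71). The lowest were AT5G40450 (-0.71) and AT1G22930 (-0.70), followed by AT1G61900 (-0.33), AT2G25964 (-0.33) and AT1G33050 (-0.31). Among the 56 genes 1 was at or below -0.7 and 7 at or above 0.7 on this array without the dye correction, beside 2.91% and 3.92% of named genes. In the fit without the dye term limma passed 0 of the 56, where 0.207% of targets passed, and 0 of the 56, beside 469 of the targets, had an unadjusted p under 0.05.

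After the dye correction, which carries the choice of the genes, the 60 h median was -0.05, beside -0.05 over all named genes, and 29 of 56 were below 0, against 55.5% of named genes. At or below -0.7 were 3 genes, AT1G22930 (-0.88 ± 0.51, SE, 1 array), AT5G40450 (-0.75 ± 0.79) and AT1G61900 (-0.71 ± 0.48), against 3.18% of named genes. AT5G14120 and AT5G16110 followed, at -0.69 and -0.67. At or above 0.7 was AT5G15950 alone (1.03 ± 0.77, limma adjusted p = 0.999), against 4.49%. AT1G19400, AT3G29240, AT3G11930 and AT1G67050 were next, between 0.44 and 0.60. By limma 0 of the 56 passed, where 0.585% of 11104 targets did, and 0 of the 56, beside 605 of the targets, had an unadjusted p under 0.05. With array 1 of 12 h left out, 1 gene was at or below -0.7 and the median was 0.06. A coefficient of -0.7 is less than 2 of the median standard errors of 0.51, so a change as small as the limit for the choice could not be resolved in this fit. With 1 array at 60 h, that standard error rests on the scatter within other comparisons, including the 6 h and 12 h arrays that chose the genes.

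Genes that were low at 18 h tended to be those with high values at 60 h over 48 h. Across the 56 genes the correlation of the raw values was -0.52 for array 1 and -0.62 for array 2 of 18 h, beside -0.08 and -0.16 over all features. For the dye-corrected coefficients it was -0.55 over the 56 genes and -0.20 over 3675 named genes. These arrays share no harvest, but their later harvests were in opposite channels, and the fitted coefficients share the dye term. Between the 2 arrays of 18 h the correlation over the 56 genes was 0.63. Over the same genes the 24 h array, with its later harvest in channel 2 as at 60 h, correlated at 0.44 with the 60 h array. With arrays 1 and 2 of 18 h the 24 h array correlated at -0.50 and -0.38. Channel and hour cannot be told apart in these correlations.

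**Figure D5:**
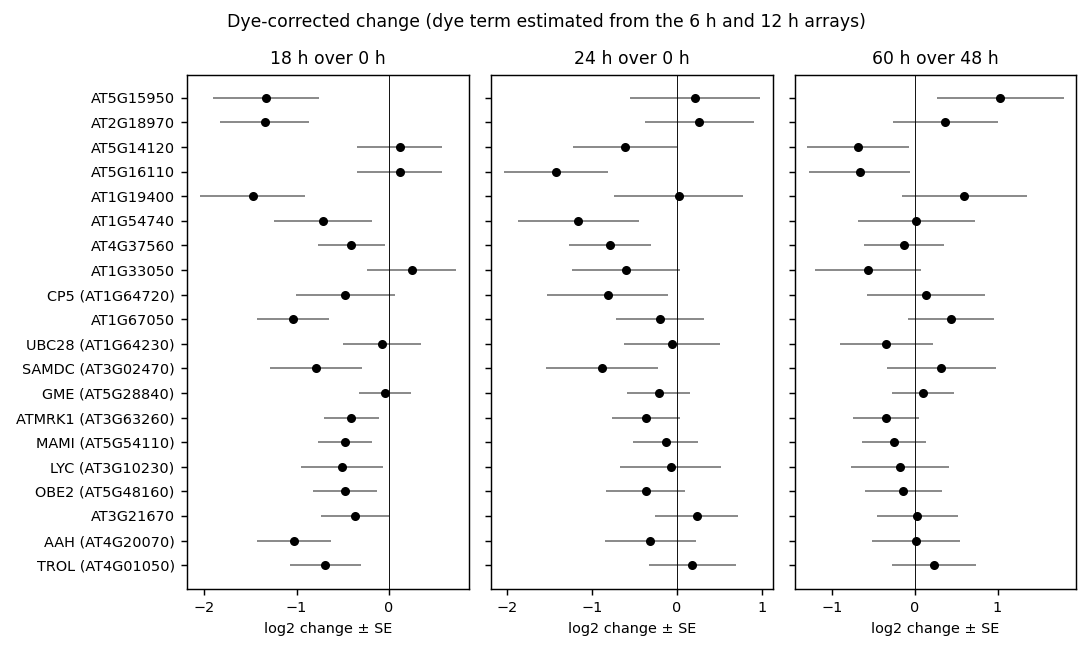
Dye-corrected log2 change (points) with its standard error (bars) at 18 h over 0 h, 24 h over 0 h and 60 h over 48 h for the 10 lowest genes and the 10 further genes with a symbol or listed name. AT1G19400, AT2G18970 and AT5G15950 lie lowest at 18 h and at or above 0 in the other panels, and AT5G16110 and AT5G14120 lie just above 0 at 18 h, where their raw values are below 0, and below 0 in the others.

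From 24 h to 36 h, where the rule removed genes past 1 in the same direction on both arrays, the 56 genes had raw medians of -0.23 without a stated light condition and -0.06 in the dark. Both arrays were below 0 for 31 genes, above 0 for 12, and of opposite sign for 13. The lowest values were -1.57 for AT3G19800 in the dark and -1.21 for AT3G05900 on the other array, and the highest was 1.18 for AT3G50790 in the dark, where the other array read -0.10. The arrays correlated at 0.72 both over the 56 genes and over all features.

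Beside the 56 genes, 14 lists of genes with known roles were looked up: the clock, light signalling, antenna and photosystem proteins, the Calvin cycle, photorespiration, pigments, starch and sugar, nitrogen and sulphur, cell wall growth, auxin, heat shock, cold, and a root marker. Of their 281 symbols 27 were measured under a single gene name, none of them among the 56, and none from the clock, auxin or heat shock lists. Genes were matched by symbol or locus and not by synonym, so a gene listed under another name was missed. LYC, a gene of carotenoid synthesis among the 56, was not matched. The 4 that reached -0.7 at both hours were set aside by the rule at 36 h or by name. TZP, a zinc finger protein of light signalling, had means of -1.80 and -1.78 at 6 h and 12 h. AKINBETA1, a subunit of the energy-sensing SnRK1 kinase, had -1.13 and -1.64, EXO, a protein of cell expansion, had -1.24 and -0.73, and HPR, the hydroxypyruvate reductase of photorespiration, had -0.77 and -0.84. The pigment genes measured beside LYC had other values: PORB, a protochlorophyllide reductase, had 2.26 and 1.26, HEMB1 -0.30 and 0.09, and HEME2 0.37 and -0.03. PYK10, the root marker, had 0.61 and -0.01. The median limma coefficient of the 27 was -0.04 at 18 h, -0.20 at 24 h and 0.38 at 60 h over 48 h, and 0 of them passed in either direction in these comparisons.

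The 56 genes lay on all 5 chromosomes, with 16 each on chromosomes 1 and 5, 11 on 3, 7 on 2 and 6 on 4. In the order of protein-coding genes no 2 of them were adjacent. The nearest were AT1G64680 and CP5, and AT4G37520 and AT4G37560, both 4 places apart.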

How the data were processed

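Each array was hybridised with total RNA of 2 harvests in 2 channels and scanned with ScanAlyze 2.33, 2.42 or 2.44, per the labels. The values used are the log2 ratios deposited by the authors, 1 per feature and array. That they are log2 was read from the values, where the ratio of 1 to 2 occurs 159 times against a mean of 20.4 at neighbouring steps. Their background correction, normalization and direction are not given in the sources used here, and spot signals were not analysed here, so the depth behind a ratio is unknown and the number of arrays limits the precision. Channel 2 over channel 1 was assumed. For array 2 of 6 h the title and the channels order the times differently, and the channels were followed. The 3 arrays used for the choice with the later harvest in channel 1 were all scanned with version 2.33.

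Each array was centred on its median (-0.147 to 0.06 before), ratios were turned to later over earlier, and features of a gene were averaged. Of 12800 features 5197 had 1 gene, 214 several and 7389 none listed, and 5190 matched a table of the assembly TAIR10.1, used for names and gene order. Targets lacking no more than 3 of the 13 array values were fitted with limma 3.58.1 in R 4.3.3 (lmFit, eBayes), each comparison having its own coefficient and all sharing a dye term, and p-values were adjusted by Benjamini-Hochberg over all targets. Dye correction at 18 h, 24 h and 60 h rests on the arrays of 6 h and 12 h, where both channel orders occur, and a comparison with 1 array was tested as if it varied like the others. Alternatives were no centring, no dye term, scaled arrays, the median over features, complete values, a dye term per software version, array 2 of 6 h turned, and each array left out.

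The genes and lists were chosen with earlier results of these data known. Genes with values in the text are the 10 lowest, those with a symbol, the extremes at 60 h and for 24 h minus 18 h, those with the most features, those nearest the limit and the lists; other genes were named after their values were seen.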

Additional observations from a re-analysis of the deposited data

Results flagged for a closer look

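On array 1 of 12 h over 0 h, titled single, 4 of the 56 genes lay far from the other 4 arrays of 12 h. AT5G15950 read 0.281 there, against -2.34 to -1.91 on the others. AT1G19400 read 0.144, AT4G36210 0.165 and AT1G67050 0.135, where all other arrays of 12 h were below -1. In each case the gap to the nearest array, divided by the range of all 5, was above Dixon's critical value of 0.71. The rule that chose the genes did not use this array and required a low mean on the other 4, so the choice itself builds a gap, and these values are a description with no test. Over 3675 named genes with a value on all 5 arrays, 5.09% had such a gap on some array and 1.25% on array 1, beside 7.14% of the 56 genes, all on array 1. Chance flags about 5% of groups of 5.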

How the results depend on the processing

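No member passed an adjusted p of 0.05 at 18 h, 24 h, 24 h minus 18 h or 60 h over 48 h in the fits run, alternatives included. The median at 18 h stayed below 0, at -0.47 to -0.24 with 1 array left out, and that at 24 h at -0.31 to -0.13. Without the dye term the median was -0.66 at 18 h and -0.03 at 24 h, where 30 of the 56 were below 0. The median at 60 h over 48 h, -0.05, was 0.011 without centring, 0.16 without the dye term and 0.064 with scaled arrays, and -0.22 to 0.057 with 1 array left out. The median of 24 h minus 18 h, 0.17, was 0.63 without the dye term, -0.17 with array 2 of 6 h turned and -0.17 to 0.33 with 1 array left out. Genes at or below -0.7, a count added after seeing the data, numbered 12 at 18 h, and 24 without the dye term and 18 without array 1 of 12 h. At 24 h the 9 became 4 and 5, and at 60 h the 3 became 1 and 1, in the same fits. With all 5 arrays of 12 h the rule kept 33 genes, all among the 56. With 1 array left out the rule gave 44 to 64 genes, of which 42 to 54 are among the 56. The rule applied to limma coefficients gave 44, of which 40 are shared. The causes of these shifts were not tested. No paired analysis was possible because the labels give the arrays no replicate numbers that pair them across comparisons. Single arrays at 24 h and 60 h limit the precision.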
